A study of Mus musculus with 20 samples.

Results

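Integrins and laminins were followed in the cecum of mice fed raw potato starch. The members were all genes of the cecum count table whose mouse symbol in the GENCODE annotation begins with Itga or Itgb, or with Lama, Lamb or Lamc and a digit, and that code for protein. There were 42 members among the 19887 genes of the table. They comprised 11 laminin chains, 18 integrin alpha chains, 8 beta chains, the beta 2-like gene Itgb2l, and 4 genes that share the Itgb prefix but encode no integrin chain. After a filter on low counts, 40 of the 42 members were among the 15348 genes tested. The 2 members left out were Itgb2l, with 0 counts in every mouse, and Itgam.

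All 20 animals were C57BL/6 mice, bred in-house, that after weaning were given the Total Western Diet (TWD), which they ate for 6 weeks. The TWD is a rodent diet built to copy the nutrient intake of people in the United States. For the next 3 weeks, 5 mice stayed on the TWD (0% RPS) and 5 mice each received the TWD with 2, 5 or 10% raw potato starch (RPS), a starch that resists digestion and is fermented by gut bacteria. RNA came from sections of the cecum of single mice, so every value belongs to 1 animal. The question was which of these genes changed with RPS and with its dose.

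Integrins are receptors made of 1 alpha and 1 beta chain that tie cells to matrix or to other cells. Laminins, made of 1 alpha, 1 beta and 1 gamma chain, form the sheet of basement membrane beneath an epithelium and around muscle fibers. In the gut, epithelial cells hold on to laminin through alpha 6 beta 4 in hemidesmosomes and through alpha 3 beta 1. Smooth muscle and fibroblasts carry receptors for collagen, fibronectin and laminin, and leukocytes use alpha 4 beta 7 and the beta 2 family to enter and move within the wall.

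The libraries held 14967798 to 42687283 counts, and the members took 0.1922 to 0.2206% of them. A count of 3, used as the floor, corresponds to 0.0698 to 0.19 CPM (a count scaled to the size of its library, with TMM normalization, the trimmed mean of M values). Epithelial markers summed to 10214 to 16368 CPM and smooth muscle markers to 2441 to 9680 CPM, and no marker of either list was at 0 in all mice, so both layers of the cecum were in the RNA. The summed level of 6 smooth muscle markers was 2441 to 5668 CPM with 0% RPS (median 3238), 3236 to 5660 with 2% (median 4196), 4154 to 9680 with 5% (median 6469) and 3993 to 6694 with 10% (median 5861). All 6 had higher estimates with 5 and 10% RPS, with median log2 fold changes of 0.91 and 0.69. Of them 1, Actg2, was called at both doses (log2 fold changes 1.53 and 1.28, adjusted p = 0.042 and 0.036 by edgeR). All 7 epithelial markers had a lower estimate with 10% RPS, and none was called. Their sums were 11678 to 15057 CPM with 0%, 11870 to 16368 with 2%, 10793 to 12612 with 5% and 10214 to 14489 with 10% RPS. The sum of 4 B cell markers was 4.42 to 159.8 CPM with 0% (median 15.1), 2.99 to 215 with 2% (median 7.75), 6.59 to 97.2 with 5% (median 52.5) and 11.6 to 207 with 10% RPS (median 173). No tested marker of fibroblasts, endothelium, lymphatic vessels, plasma cells, T cells or macrophages was called at any dose. The same held for those of neutrophils, platelets, mast cells, enteric glia and mesothelium. Only 1 of 4 neutrophil, 1 of 4 mast cell, 2 of 4 platelet, 2 of 3 plasma cell and 2 of 3 mesothelium markers were tested. The neutrophil marker tested, Ly6g, had log2 fold changes of -4.91 with 5% and -2.745 with 10% RPS (adjusted p = 0.051 and 0.0969 by edgeR). In bulk RNA, a change in the number of cells of a type cannot be told apart from a change in RNA per cell.

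**Figure D1:**
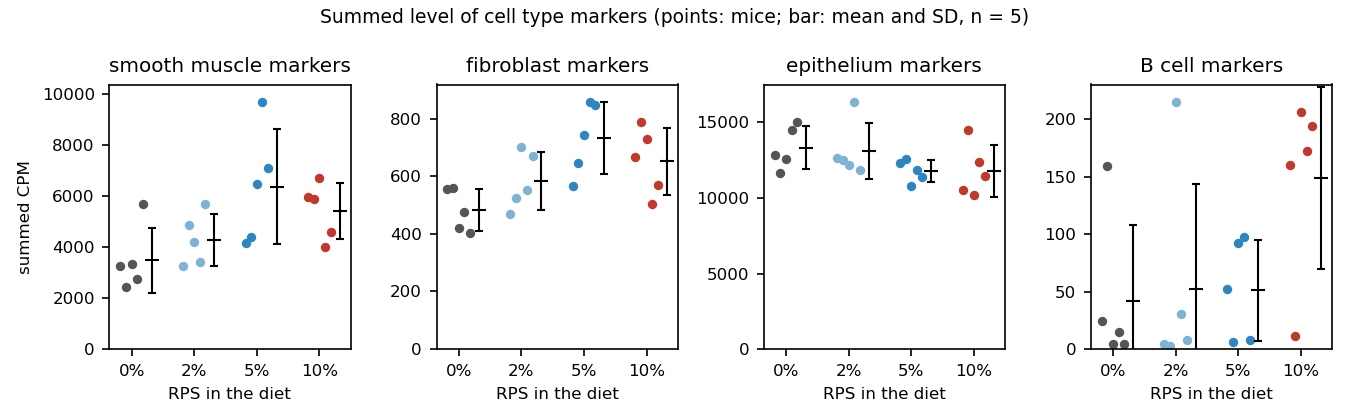
Summed CPM of the smooth muscle, fibroblast, epithelial and B cell markers (vertical axes) in each mouse by RPS in the diet (horizontal axes). Points are mice, and bars are the mean and SD of 5 mice, with SD bars clipped at 0. The highest smooth muscle sum, 9680 CPM, belonged to 1 mouse fed 5% RPS, and B cell sums of 159.8 CPM or more were seen in 1 mouse fed 0%, 1 fed 2% and 4 fed 10% RPS.

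Starts of transcription are shown for 4 members, because 1 of them was the member called and the others are chains of the fibronectin receptor, the hemidesmosome and the epithelial laminin whose values are described after it. Each window runs from 250 bases before to 50 after the start of the canonical transcript (GRCm39, GENCODE). Capitals mark matches to the SP1 motif GGGCGG or the AP-1 motif TGANTCA, searched on both strands. The first is Itga9, the alpha 9 chain. The second is Itga5, the fibronectin receptor alpha chain. The third is Itgb4, the hemidesmosome beta chain. The last is Lamb3, the beta chain of laminin-332.
Itga9, chr9:118435472-118435771, plus strand: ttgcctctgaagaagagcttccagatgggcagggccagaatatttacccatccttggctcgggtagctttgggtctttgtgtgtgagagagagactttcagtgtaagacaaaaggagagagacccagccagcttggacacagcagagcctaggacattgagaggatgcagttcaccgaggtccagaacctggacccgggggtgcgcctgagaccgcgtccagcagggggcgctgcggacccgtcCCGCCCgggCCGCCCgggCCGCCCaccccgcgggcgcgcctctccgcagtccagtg
Itga5, chr15:103275141-103275440, minus strand: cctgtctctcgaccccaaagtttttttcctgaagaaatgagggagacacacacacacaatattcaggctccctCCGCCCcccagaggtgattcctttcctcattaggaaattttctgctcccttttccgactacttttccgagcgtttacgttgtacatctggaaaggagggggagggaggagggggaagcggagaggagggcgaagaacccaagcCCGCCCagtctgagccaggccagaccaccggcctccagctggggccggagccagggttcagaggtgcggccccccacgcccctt
Itgb4, chr11:115865083-115865382, plus strand: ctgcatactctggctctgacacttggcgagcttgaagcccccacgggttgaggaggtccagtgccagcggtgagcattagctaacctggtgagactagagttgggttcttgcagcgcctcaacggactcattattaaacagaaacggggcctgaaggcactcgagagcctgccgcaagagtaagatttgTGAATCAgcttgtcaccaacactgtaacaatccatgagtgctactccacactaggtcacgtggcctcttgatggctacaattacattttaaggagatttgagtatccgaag
Lamb3, chr1:192984051-192984350, plus strand: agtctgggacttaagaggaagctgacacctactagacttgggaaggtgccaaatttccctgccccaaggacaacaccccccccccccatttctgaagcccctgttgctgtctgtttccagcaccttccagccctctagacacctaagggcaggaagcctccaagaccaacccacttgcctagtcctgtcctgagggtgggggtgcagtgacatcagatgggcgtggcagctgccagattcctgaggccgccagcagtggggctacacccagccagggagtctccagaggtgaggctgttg

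The Itga9 window holds 3 SP1 matches, which begin at -6, +4 and +13 from the first transcribed base. The Itga5 window holds 2, at -177 and -34. Itgb4 has no SP1 match and 1 AP-1 match, at -61, and Lamb3 has neither. Of the 42 members, 19 had an SP1 match, against 42.5% of 21770 protein-coding genes, and 3 had an AP-1 match, against 7.14%. The other members with an AP-1 match were the leukocyte alpha chains Itgax and Itgad. A match describes letters in the window and not a site in use.

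To compare levels between genes, CPM was divided by the length of all exons of the gene. On this scale Itgb1, the beta chain shared by most matrix receptors, had the highest level of all members at 64.3 ± 4.11 CPM per kb (SD, n = 20). It was followed by the epithelial laminin receptor chains Itga3 with 31.6 ± 4.66 and Itgb4 with 30.2 ± 5.41, and by Lamb3 with 27.8 ± 5.64 CPM per kb. The SDs of these 3 overlapped, but the genes were measured in the same mice, so this overlap does not decide their order. Per exon length, Itga3 had a higher mean than Lamb3 with every diet (35.3 and 33.0 with 0%, 27.9 and 24.6 CPM per kb with 10% RPS). The order below Itgb1 also depends on the length, because per kb of the canonical transcript Itga6 came second with 49.1 ± 7.36, followed by Lamb3 with 41.1 ± 8.32, Itga3 with 37.1 ± 5.46 and Itgb4 with 35.0 ± 6.26. Itga6 had 19.0 ± 2.85, Itgb5 12.1 ± 1.41, Itga5 7.48 ± 4.18 and Itgav 7.23 ± 1.42 CPM per kb. The laminins with the next highest levels were Lamb2 with 6.58 ± 1.41, Lamb1 with 5.24 ± 0.771, Lamc1 with 4.34 ± 0.562 and Lama5 with 3.83 ± 0.504 CPM per kb. Itgb6 had 7.15 ± 1.72 CPM per kb, and the remaining integrin and laminin chains that were tested had means of 0.0796 (Itgad) to 5.9 CPM per kb (Itga7).

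Lamb3 and Lama3, chains of the epithelial laminin-332, were far from equal. Per length, Lamb3 exceeded Lama3 in all 20 mice, with a median ratio of 12.7 and a range of 8.84 to 22.6. With the length of the canonical transcript alone, the median was 17.8. The ratio of Itgb4 to its partner Itga6 was 1.48 per exon length but 0.666 per canonical length, so the order of these 2 chains depends on the length used. Itgb1 exceeded Itga3 by 1.99 and 2.02 on the 2 lengths.

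**Figure D2:**
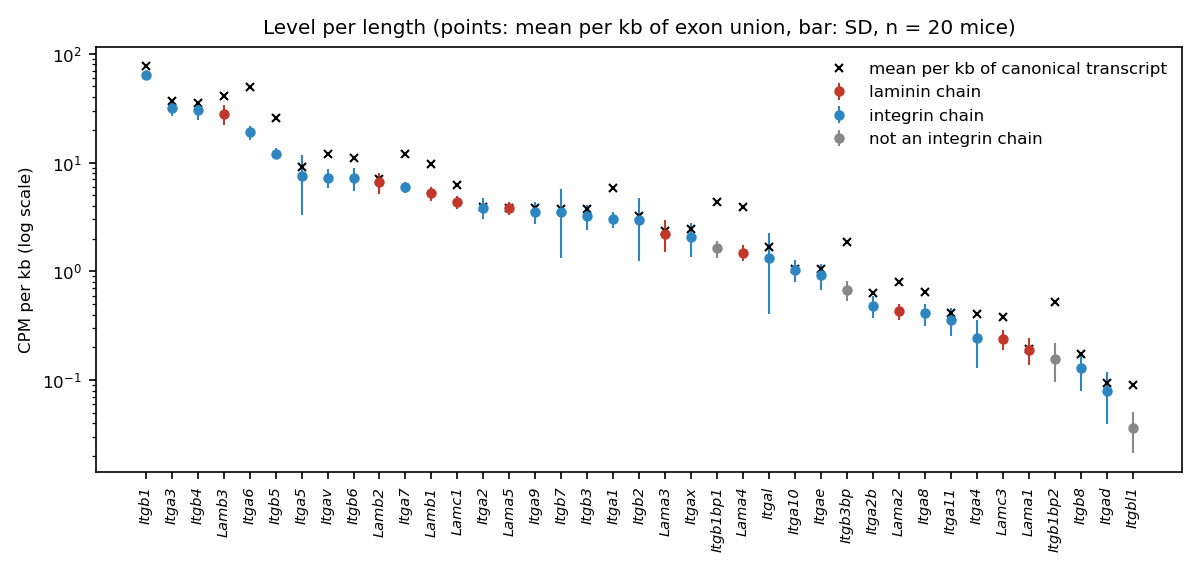
Level of 39 members, in CPM per kb of exon length on a log axis, as the mean and SD of all 20 mice, ordered from high to low. Crosses give the mean per kb of the canonical transcript. Itgb1 leads at 64.3 CPM per kb and Itgbl1 is last at 0.0362.

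Itgam, the alpha chain of the complement receptor of myeloid cells, was at 0 to 0.104 CPM. Of its 5118 exon bases, 3450 are shared on the same strand with the readthrough gene Gm49368, which was itself at 0 to 0.358 CPM. How reads in the shared bases were counted is not given in the sources used here, so the level of Itgam cannot be read from these counts. Itga10 (1739 bases with Gm42957) and Itga1 (685 bases with Gm49395) also share exon bases on the same strand with another gene. On the other strand Cerkl covers 3481 exon bases of Itga4, Mocs2 2180 of Itga1 and Galk1 1074 of Itgb4. Among genes that are not integrin chains, Fgf14 covers 4306 of Itgbl1, and Asap2 and Cpsf3 cover 2895 of Itgb1bp1. Alg6, Efcab7 and Pgm1 cover 2143 of Itgb3bp. The libraries were stranded, but whether the counting used strand is not given in the sources used here.

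With 10% RPS, 1 member was called at an adjusted p of at most 0.05 and a change of at least 1.5-fold. This was Itga9, which was upregulated. Of all genes tested, 84 (0.547%) were called higher and 76 (0.495%) lower in this comparison, so 1 of 40 members called higher and 0 lower is a small count against a small background. By unadjusted p under 0.05, 9 of 40 members had higher and 4 lower estimates, against 9.74 and 9.75% of all genes. With 5% RPS no member was called in either direction, against 0.0977% of all genes in each. By unadjusted p, 8 members were higher and 5 lower with 5% RPS, against 6.74 and 6.54%. With 2% RPS no gene of any kind was called (0% of all genes), and 1 member, Itga7, had an unadjusted p under 0.05, against 2.58% of genes higher and 3.19% lower. Without the fold threshold the counts of members were the same, against 0.717% of all genes higher and 1.14% lower with 10% RPS and 0.104 and 0.15% with 5% RPS. The linear trend over the percentage of RPS called 1 member higher, again Itga9, and none lower, against 0.378 and 0.73% of all genes. By unadjusted p, 9 members had a positive and 4 a negative slope, against 9.37 and 9.47%. The DESeq2 Wald test called Itga5 higher with 5% RPS, Itga4 and Itga9 higher with 10% RPS and in the trend, and Itgb4 lower in the trend. By that test 1.43% of all genes were called higher and 1.03% lower with 10% RPS, 0.849 and 0.562% with 5% RPS, and 2.01 and 2.83% in the trend. The 3 doses were compared with the same 5 mice on 0% RPS, so they are not independent of each other.

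Among the 40 members tested, 26 had a higher and 14 a lower estimate with 10% RPS, and the median log2 fold change was 0.17, against 0.00405 over all genes. With 5% RPS the median was 0.21 against -0.00182, and with 2% RPS 0.096 against 0.00349. Integrin chains had 19 higher and 6 lower estimates with 10% RPS. Laminin chains had 4 higher and 7 lower.

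**Figure D3:**
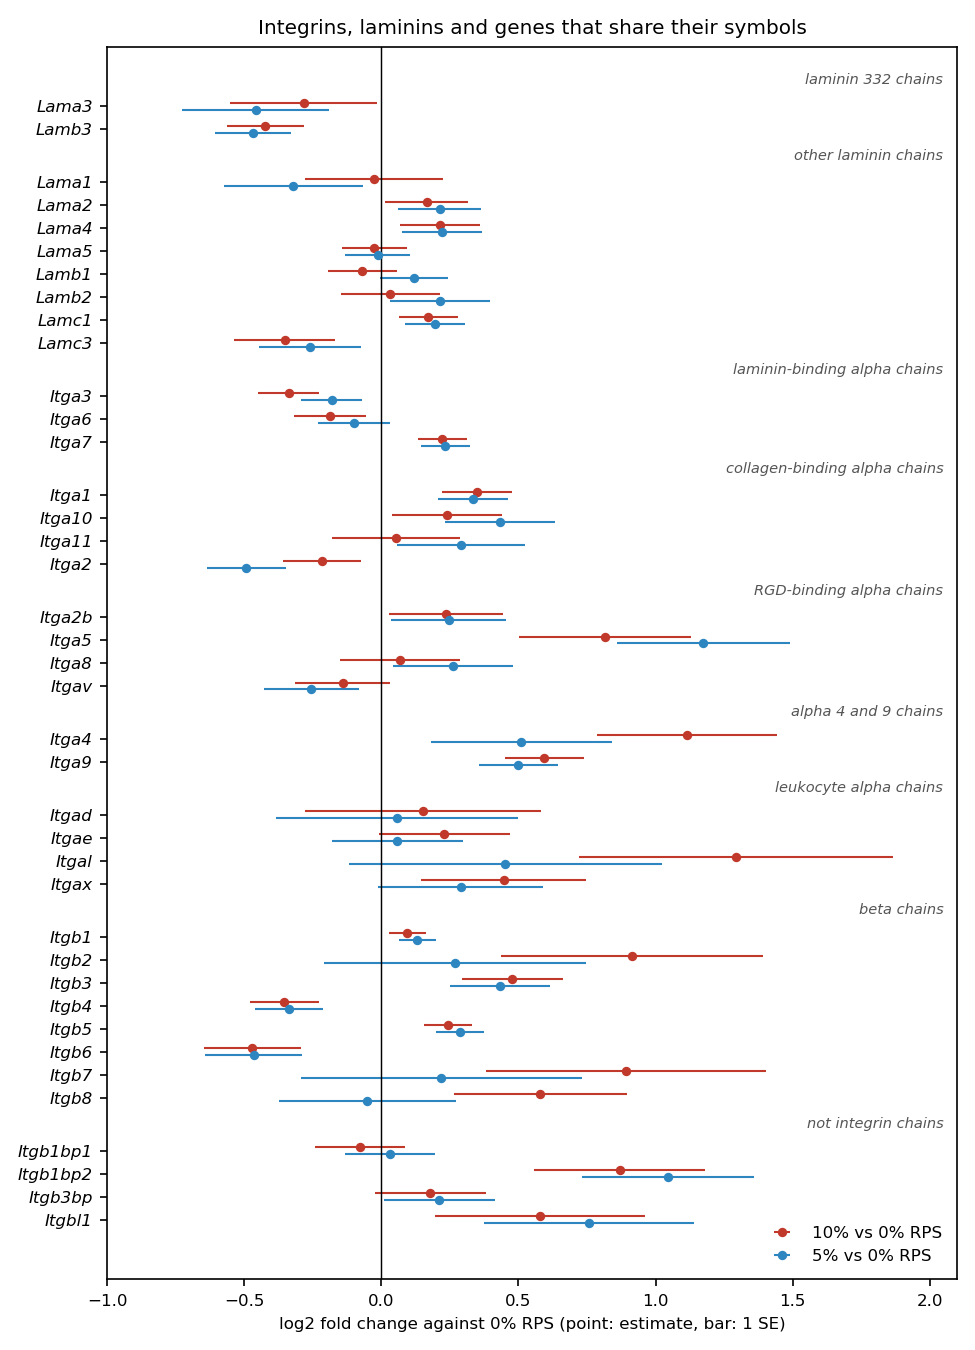
Log2 fold change of 39 members against 0% RPS (horizontal axis), with 1 SE, for 10% and 5% RPS, grouped by role. The estimates with 10% RPS run from -0.47 for Itgb6 to 1.29 for Itgal, and Lama3 and Lamb3 lie below 0 at both doses.

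The alpha 4 and alpha 9 chains form a pair of related receptors. Alpha 9 joins beta 1 and binds tenascin C, osteopontin and VCAM1 on muscle, epithelium and lymphatic vessels. Itga9 was 25.71, 21.3, 22.5, 22.8 and 15.8 CPM in the 5 mice on 0% RPS and 23.1, 23.8, 18.4, 25.4 and 27.7 CPM with 2% RPS. It was 27.1, 25.65, 30.8, 32.3 and 37.1 CPM with 5% RPS and 35.4, 35.7, 38.2, 23.7 and 29.9 CPM with 10% RPS. At both higher doses 4 of 5 mice were above every mouse on 0% RPS, while mouse 4 fed 10% RPS lay within their range. Means were 21.6 ± 3.66, 23.7 ± 3.44, 30.6 ± 4.51 and 32.6 ± 5.83 CPM (SD, n = 5) from 0 to 10% RPS. The log2 fold change of Itga9 was 0.59 (SE 0.144, edgeR quasi-likelihood adjusted p = 0.0376) with 10% RPS, a change of 1.51-fold that stands just above the threshold. It was 0.50 (adjusted p = 0.107 by edgeR) with 5% and 0.13 with 2% RPS. The slope was 0.0616 log2 units per percent RPS (adjusted p = 0.0385 by edgeR). With 1 of the 20 mice left out, the slope passed in 11 of 20 fits, with an adjusted p of 0.00637 (without mouse 4 fed 10%) to 0.128 (without mouse 3 fed 10%). With smooth muscle or epithelial markers in the fit, the adjusted p of the slope was 0.204 and 0.236. The lowest slope over all fits with other settings, these included, was 0.04 log2 units per percent RPS. With 1 mouse left out, the adjusted p of Itga9 with 10% RPS was lowest (0.0102) when mouse 4 on 10% RPS was dropped and highest (0.122) when mouse 3 on 10% RPS was, and the call was kept in 3 of 10 such fits. With the mean smooth muscle marker level in the fit, its log2 fold change was 0.41 (adjusted p = 0.228), and with the epithelial marker level it was 0.56 (adjusted p = 0.143).

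Alpha 4, the chain that with beta 7 guides lymphocytes to the gut, had a lower level per length, 0.244 ± 0.114 CPM per kb against 3.51 ± 0.807 for Itga9 (SD, n = 20). Itga4 was 3.12, 4.38, 2.48, 2.25 and 1.49 CPM with 0% RPS and 2.68, 2.47, 7.82, 3.15 and 2.56 CPM with 2% RPS. It was 3.75, 3.05, 4.82, 3.93 and 4.0 CPM with 5% RPS and 7.6, 2.99, 6.57, 5.18 and 7.31 CPM with 10% RPS. With 10% RPS 4 of 5 mice were above all mice on 0% RPS, and mouse 2 was within their range. Its log2 fold change was 1.11 (SE 0.328, adjusted p = 0.0763 by edgeR), and Itga4 was not called. It passed without mouse 2 on 0% RPS (1.35, adjusted p = 0.037).

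The leukocyte chains came next. Itgal, the alpha chain of LFA-1 on lymphocytes, was 5.24, 13.7, 3.79, 4.2 and 2.01 CPM with 0% RPS and 3.84, 2.82, 20.7, 4.6 and 3.37 CPM with 2% RPS. It was 7.1, 5.59, 8.94, 11.8 and 5.98 CPM with 5% RPS and 14.9, 4.36, 19.6, 13 and 18.8 CPM with 10% RPS. Mouse 2 on 0% RPS and mouse 3 on 2% RPS reached the levels of the 4 high mice on 10% RPS, and mouse 2 on 10% RPS was within the range of the other 4 mice on 0%. The log2 fold change with 10% RPS was 1.29 (SE 0.573, adjusted p = 0.227 by edgeR). Without mouse 2 on 0% RPS it was 1.90 (adjusted p = 0.0695). The other leukocyte chains were Itgb2, the partner of Itgal, with 7.27 ± 4.18 CPM on 0% and 13.7 ± 4.55 on 10% RPS (adjusted p = 0.301 by edgeR, SD, n = 5), and Itgb7, with 7.69 ± 4.41 and 14.3 ± 6.1 CPM (adjusted p = 0.345). Itgax of dendritic cells and Itgae of intraepithelial lymphocytes had log2 fold changes of 0.45 and 0.23 with adjusted p of 0.43 and 0.64, and Itgad was near the floor at 0.126 to 0.989 CPM. Of 4 leukocyte alpha chains tested, all had higher estimates with 10% RPS and none was called.

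The same mice were high in B cell and T cell markers. The B cell sum was 159.8 CPM in mouse 2 on 0% RPS and 215 CPM in mouse 3 on 2% RPS, where the other mice of these groups had 2.99 to 30.6 CPM. With 10% RPS it was 159.9, 11.6, 207, 173 and 194 CPM, and mouse 2, with 11.6 CPM, was also the lowest of its group for Itga4, Itgal, Itgb2 and Itgb7. All 4 B cell markers had higher estimates with 10% RPS, with log2 fold changes of 1.67 to 2.03, and none was called. The sum of 5 T cell markers was 31.2 CPM in mouse 2 on 0% RPS, where the other mice had 12.9 to 15.6, and 43.5 CPM in mouse 3 on 2% RPS, where the others had 10.7 to 13.8. It was 13.9 to 21.4 CPM with 5% RPS and 23.5, 9.86, 29.8, 20.7 and 27.7 CPM with 10% RPS, again lowest in mouse 2. The part of lymphoid tissue in the sampled piece in these values was not tested.

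**Figure D4:**
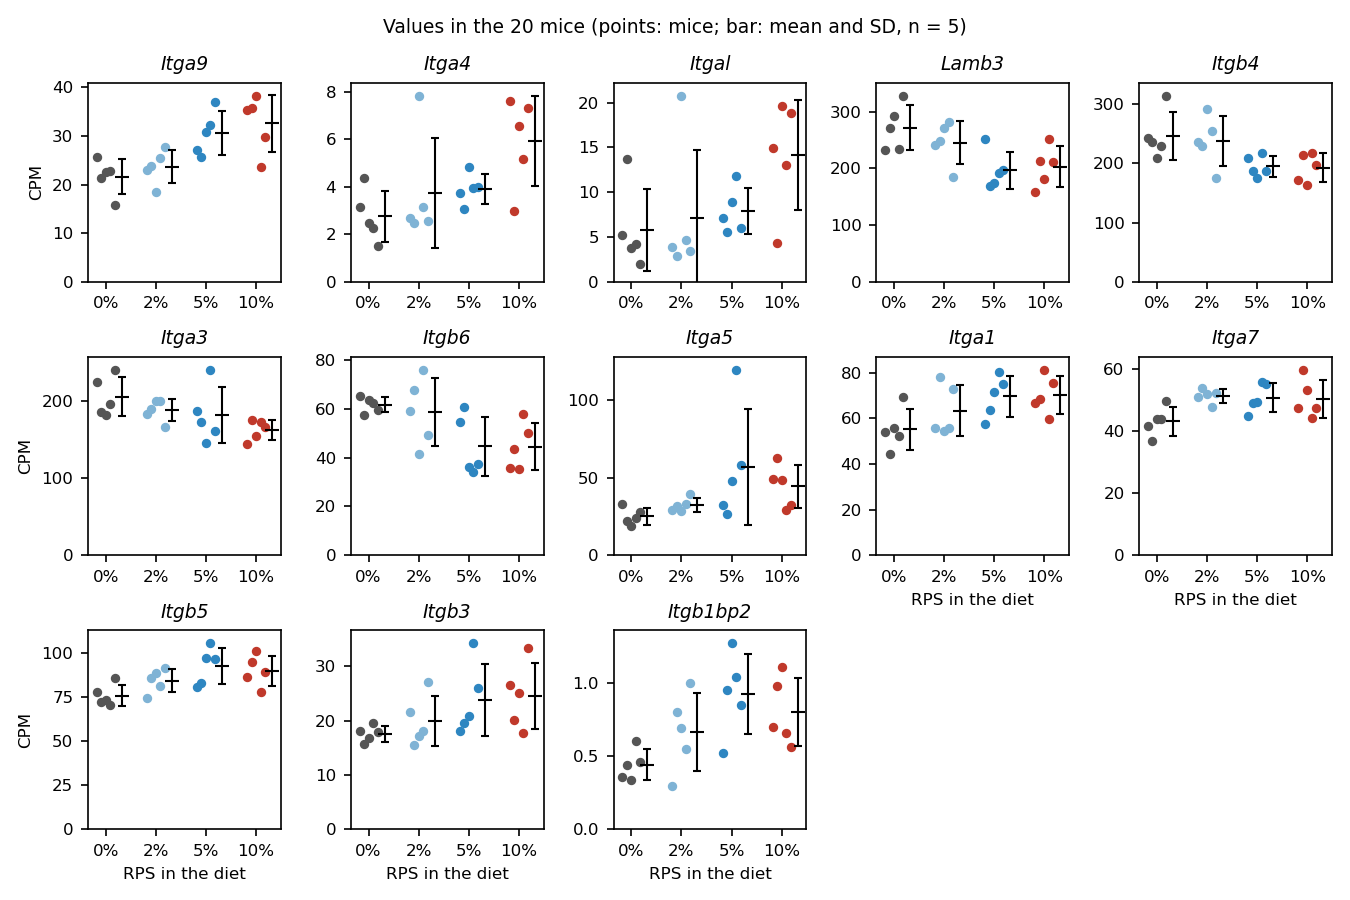
CPM (vertical axes, from 0) of the 13 members with an unadjusted p under 0.05 for 10% against 0% RPS, by RPS in the diet. Points are mice, bars are the mean and SD of 5 mice, and the SD bar of Itgal at 2% is clipped at 0. Only Itga3 has no overlap between 0% and 10% RPS, and only Itga9 was called.

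Epithelial laminin and laminin receptor chains are described next. Lama3, Lamb3, Itga3, Itga6 and Itgb4 had lower estimates with 5 and 10% RPS, while Itgb1, the partner of Itga3 that other cell types share, had higher ones (0.093 with 10% and 0.13 with 5% RPS). Lamb3, the beta chain of laminin-332, was 233, 271, 292, 235 and 328 CPM with 0% RPS and 241, 248, 272, 281 and 184 CPM with 2% RPS. It was 251, 169, 173, 191 and 197 CPM with 5% RPS and 157, 213, 180, 252 and 211 CPM with 10% RPS. With both 5 and 10% RPS, 4 of 5 mice were below every mouse on 0% RPS. The log2 fold change of Lamb3 was -0.42 (SE 0.139, adjusted p = 0.108 by edgeR) with 10% and -0.47 (SE 0.139, adjusted p = 0.122) with 5% RPS. Lama3 went from 31.6 ± 8.71 to 26.1 ± 9.43 CPM between 0 and 10% RPS (SD, n = 5), a log2 fold change of -0.28, and its estimate with 5% RPS was -0.46. Neither chain was called at any dose.

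Itgb4, whose long tail anchors keratin filaments at the hemidesmosome, was 244, 237, 209, 230 and 314 CPM with 0% RPS and 236, 230, 292, 255 and 176 CPM with 2% RPS. It was 210, 187, 175, 218 and 187 CPM with 5% RPS and 172, 214, 164, 217 and 198 CPM with 10% RPS. Mice on 0% and 10% RPS overlapped, with 3 of 5 below the 0% range at each of the 2 higher doses. The log2 fold change with 10% RPS was -0.35 (SE 0.125, adjusted p = 0.131 by edgeR). Its partner Itga6 had an estimate of -0.19 (SE 0.131, adjusted p = 0.453).

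Itga3, the alpha chain of an epithelial receptor for laminin-332, was 223, 186, 181, 196 and 240.0 CPM with 0% RPS and 182, 189, 200, 200 and 166 CPM with 2% RPS. It was 187, 172, 146, 239 and 161 CPM with 5% RPS and 144, 175, 154, 172 and 166 CPM with 10% RPS. All 5 mice on 10% RPS were below all 5 on 0%. This made Itga3 the 1 member of 40 without overlap in that comparison, against 3.2% of all genes lower and 1.68% higher. With 5% RPS 0 members were without overlap, against 2.04% of all genes lower and 1.53% higher, and with 2% RPS 0, against 0.671 and 0.417%. Its log2 fold change was -0.34 (SE 0.112, adjusted p = 0.109 by edgeR), and it was not called.

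Itgb6, an epithelial chain that pairs with alpha v and releases latent TGF-beta, was 65.3, 57.4, 63.7, 62.3 and 59.7 CPM with 0% RPS and 59.2, 67.7, 41.4, 76.0 and 49.1 CPM with 2% RPS. It was 54.6, 60.7, 36.2, 33.9 and 37.5 CPM with 5% RPS and 35.8, 43.7, 35.3, 57.8 and 50.1 CPM with 10% RPS. The 0% mice lay close together, and 4 of 5 mice were below them at 5% and at 10% RPS. For Itgb6 the log2 fold change was -0.47 (SE 0.177, adjusted p = 0.155 by edgeR) with 10% and -0.47 (SE 0.178, adjusted p = 0.235) with 5% RPS. With smooth muscle markers in the fit the estimate for Itgb6 was -0.13 and with epithelial markers -0.31. For Lamb3 these were -0.31 and -0.335, for Itgb4 -0.35 and -0.24, and for Itga3 -0.43 and -0.23. The part of cell composition in these 4 estimates was not tested beyond these fits.

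Members described next were those with a higher estimate and an unadjusted p under 0.05 with 10% RPS that were not described above. Beside the smooth muscle sums given above, 6 fibroblast markers summed to 403 to 559 CPM with 0%, 468 to 701 with 2%, 567 to 858 with 5% and 502 to 788 CPM with 10% RPS, with 5 of 6 estimates higher at 10% and none called. Itga5, the alpha chain of the fibronectin receptor, was 32.9, 22.2, 18.9, 24.2 and 28.2 CPM with 0% RPS and 29.0, 31.7, 28.8, 33.4 and 39.7 CPM with 2% RPS. It was 32.4, 27.0, 47.8, 119.8 and 58.6 CPM with 5% RPS and 49.1, 62.8, 48.5, 29.1 and 32.7 CPM with 10% RPS. At 5 and 10% RPS, 3 of 5 mice were above the 0% range, and the highest value, in mouse 4 on 5% RPS, belonged to the mouse with the highest smooth muscle sum of 9680 CPM. The log2 fold change of Itga5 was 1.18 (SE 0.317, adjusted p = 0.0928 by edgeR) with 5% and 0.82 (SE 0.315, adjusted p = 0.169) with 10% RPS. With 1 mouse left out, the estimate with 5% RPS was 0.70 to 1.36, with an adjusted p of 0.0549 to 0.229 by edgeR. Over the fits with other settings that estimate ran from 0.0 to 1.25. With the smooth muscle level in the fit the estimate with 10% RPS was -0.03 (adjusted p = 0.952).

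Itga1, a collagen receptor chain of smooth muscle and fibroblasts, was 54.2, 44.5, 55.8, 52.4 and 69.1 CPM with 0% RPS and 55.9, 78.0, 54.3, 55.7 and 72.7 CPM with 2% RPS. It was 57.6, 63.6, 71.4, 80.4 and 75.0 CPM with 5% RPS and 66.8, 68.5, 81.2, 59.5 and 75.5 CPM with 10% RPS. The groups overlapped through mouse 5 on 0% RPS, whose 69.1 CPM exceeded 3 of the 5 mice on 10% RPS. This gave a log2 fold change of 0.35 (SE 0.127, adjusted p = 0.142 by edgeR). That mouse also had the highest smooth muscle sum of its group, 5668 CPM.

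Itga7, the laminin receptor alpha chain of muscle, was 41.6, 37.0, 44.0, 43.8 and 49.8 CPM with 0% RPS and 51.0, 53.9, 51.9, 47.6 and 52.2 CPM with 2% RPS. It was 44.8, 48.97, 49.2, 55.8 and 55.2 CPM with 5% RPS and 47.3, 59.8, 53.4, 44.2 and 47.3 CPM with 10% RPS. With 2% RPS 4 of 5 mice were above the 0% range, and with each of the 2 higher doses 2 of 5 were. The estimates at the 3 doses were close, with log2 fold changes of 0.25 with 2%, 0.23 with 5% and 0.22 with 10% RPS and adjusted p of 0.815, 0.238 and 0.181 by edgeR.

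Itgb5, which pairs with alpha v and binds vitronectin, was 77.7, 71.8, 73.0, 70.4 and 85.7 CPM with 0% RPS and 74.5, 85.9, 88.6, 80.9 and 91.4 CPM with 2% RPS. It was 80.9, 82.9, 96.9, 105 and 96.4 CPM with 5% RPS and 86.1, 94.5, 101, 77.9 and 88.9 CPM with 10% RPS. With 10% RPS 4 of 5 mice were above the 0% range, and the log2 fold change was 0.24 (SE 0.0871, adjusted p = 0.136 by edgeR).

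Itgb3, the beta chain of the alpha v beta 3 and platelet receptors, was 18.03, 15.6, 16.8, 19.61 and 17.96 CPM with 0% RPS and 21.6, 15.6, 17.2, 18.1 and 27.1 CPM with 2% RPS. It was 18.1, 19.64, 20.9, 34.2 and 26.1 CPM with 5% RPS and 26.6, 20.03, 25.03, 17.7 and 33.3 CPM with 10% RPS. Again 4 of 5 mice on each of the 2 higher doses were above the 0% range, and the log2 fold change with 10% RPS was 0.48 (SE 0.184, adjusted p = 0.164 by edgeR). The platelet chain Itga2b had an estimate of 0.24 (adjusted p = 0.563), and the 4 platelet markers summed to 1.23 to 3.74 CPM over all mice.

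Itgb1bp2 encodes melusin, a muscle protein that binds the beta 1 tail and is not an integrin chain. It was 0.358, 0.438, 0.338, 0.604 and 0.459 CPM with 0% RPS and 0.292, 0.8, 0.689, 0.547 and 1.0 CPM with 2% RPS. It was 0.521, 0.95, 1.27, 1.04 and 0.848 CPM with 5% RPS and 0.697, 0.981, 1.11, 0.66 and 0.563 CPM with 10% RPS. All these values were above the floor, and 4 of 5 mice at each of the 2 higher doses exceeded every 0% mouse. For Itgb1bp2 the log2 fold change was 0.87 (SE 0.312, adjusted p = 0.138 by edgeR) with 10% and 1.05 (SE 0.313, adjusted p = 0.124) with 5% RPS. With the smooth muscle level in the fit, estimates with 10% RPS were 0.03 for Itga1, 0.03 for Itga7, 0.01 for Itgb5, 0.18 for Itgb3 and 0.35 for Itgb1bp2. With the epithelial level in the fit they were 0.31, 0.26, 0.23, 0.41 and 0.82 in the same order, and 0.89 for Itga5. The part of cell composition in these estimates was not tested beyond these fits. The 6 smooth muscle markers themselves had log2 fold changes of 0.36 to 1.28 with 10% RPS.

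The other members gave no call. Itgb1 was 366 ± 19.96 CPM with 0% and 391 ± 27.0 CPM with 10% RPS (SD, n = 5), a log2 fold change of 0.093 (SE 0.0676, adjusted p = 0.467 by edgeR). Itga2, a collagen receptor chain of epithelium, was 32.4 ± 9.31 CPM with 0% and 23.0 ± 1.66 CPM with 5% RPS (log2 fold change -0.49, adjusted p = 0.11 by edgeR), and without mouse 5 on 0% RPS it was called lower. Of 8 laminin chains that are not part of laminin-332, 4 had higher and 4 lower estimates with 10% RPS, from -0.35 for Lamc3 to 0.21 for Lama4, and 0 had an unadjusted p under 0.05. Among them Lama5, the main alpha chain under the mature gut epithelium, had 45.1 ± 3.31 and 44.3 ± 3.41 CPM, and Lamc1, the common gamma chain, 45.4 ± 3.6 and 51.1 ± 5.46 CPM (SD, n = 5). Itgav, which pairs with beta 5 and beta 6, was 96.4 ± 22.0 and 87.3 ± 9.35 CPM, and Itgb8, another partner of alpha v, 1.32 ± 0.695 and 1.98 ± 0.674 CPM. Itga8, Itga10 and Itga11 had log2 fold changes of 0.068, 0.24 and 0.053. The remaining genes that share the prefix were Itgb1bp1 with -0.078, Itgb3bp, a centromere protein, with 0.18, and Itgbl1, a secreted protein, with 0.58 at 0.134 to 0.661 CPM.

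Genes that work with these receptors were read from lists of ligands and adaptors, and no gene of any of the 7 lists was called at any dose. With 10% RPS, 4 of 8 matrix ligands had higher and 4 lower estimates, and 3 had an unadjusted p under 0.05, all higher. Of all genes, to be set beside this and the next lists, 9.74% were higher and 9.75% lower by this threshold with 10% RPS. The ligands included Fn1, fibronectin, the ligand of alpha 5 beta 1 (155 ± 52.2 and 289 ± 151 CPM with 0 and 10% RPS, log2 fold change 0.90, adjusted p = 0.104 by edgeR, n = 5), and Tnc, tenascin C, a ligand of alpha 9 beta 1 (68.1 ± 10.2 and 97.3 ± 23.1 CPM, 0.51, adjusted p = 0.11). The third, Postn (periostin), was 106 ± 9.35 and 133 ± 17.3 CPM (0.33, adjusted p = 0.178). The lower estimates were those of Spp1 (osteopontin, a ligand of alpha 9, -0.44), Thbs1 (-0.21), Fbln1 (-0.11) and Vtn (-0.085), with adjusted p of 0.602 to 0.901 by edgeR. Of 6 ligands of leukocyte integrins, Vcam1 was higher and Cdh1 and Jam2 were lower by unadjusted p. Vcam1, bound by alpha 4 and alpha 9, was 9.53 ± 5.28 and 16.3 ± 5.36 CPM (0.78, adjusted p = 0.232 by edgeR, n = 5), and Madcam1, the gut ligand of alpha 4 beta 7, was 5.12 ± 2.17 and 7.68 ± 3.61 CPM (0.58, adjusted p = 0.55).

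Of 5 hemidesmosome genes tested, 4 had lower estimates with 10% RPS and 2 had an unadjusted p under 0.05. Cd151, a tetraspanin that binds alpha 3 and alpha 6, was 143 ± 16.0 and 126 ± 7.56 CPM (log2 fold change -0.19, adjusted p = 0.187 by edgeR, n = 5), and Krt14 was 0.534 ± 0.232 and 0.201 ± 0.0858 CPM, near the floor. Plec, plectin, which links beta 4 to keratin, was 827 ± 166 and 677 ± 92.2 CPM (-0.29, adjusted p = 0.317). Of 10 further basement membrane genes, 0 had an unadjusted p under 0.05 with 10% RPS and 5 did with 5% RPS, all higher, against 6.74% of all genes higher and 6.54% lower with 5% RPS. They were Col4a1, Col4a2, Hspg2, Agrn and Sparc, with log2 fold changes of 0.20 to 0.51 and adjusted p of 0.218 to 0.327 by edgeR.

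Of 16 focal adhesion genes, 3 were higher and 4 lower by unadjusted p with 10% RPS. The higher ones were the actin crosslinker Flna (706.5 ± 170.1 and 1027 ± 130.3 CPM, log2 fold change 0.54, adjusted p = 0.0942 by edgeR, n = 5), Tns1 (0.47, adjusted p = 0.142) and Vcl, vinculin (0.30, adjusted p = 0.211). The lower ones were the signaling adaptor Bcar1 (136 ± 36.5 and 93.6 ± 10.1 CPM, -0.54, adjusted p = 0.0786 by edgeR, n = 5), the kinase Src (-0.25, adjusted p = 0.0956), Tln2 (-0.54, adjusted p = 0.0964) and Pxn, paxillin (-0.29, adjusted p = 0.127). Talin 1 (Tln1), the main activator of integrins, was 208 ± 22.2 and 231 ± 13.9 CPM (0.16, adjusted p = 0.436). Among 5 genes of latent TGF-beta, 1 (Ltbp1) was higher by unadjusted p, and among 3 other laminin receptors, 1 (Rpsa) was lower.

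Chains that form 1 receptor or 1 laminin were then compared over the 20 mice after the diet mean of log2 CPM had been removed. Of 19 pairs, 7 had an adjusted p of at most 0.05 for Pearson's r (permutation test within diets, two-sided, Benjamini-Hochberg over the pairs). Itgal and Itgb2, the chains of LFA-1, gave r = 0.96 and Spearman's rho = 0.97 (permutation adjusted p = 0.00038 and 0.00019, n = 20), and r was 0.92 without the 2 mice farthest from the median of Itgal. Itga4 and Itgb7 gave r = 0.91 and rho = 0.86 (permutation adjusted p = 0.000665 and 0.00076), and 0.82 without 2 mice. Itgae and Itgb7 gave r = 0.78 and rho = 0.72 (permutation adjusted p = 0.00452 and 0.00885), and 0.75 without 2 mice. These leukocyte pairs share the mice that were high in B cell and T cell markers. Pairs of chains that do not form 1 protein were not tested, so a high r is not shown to be particular to partners. Itgal and Itgb7, which are not partners, were both highest of their group in the same 2 mice. They were 13.7 and 15.33 CPM in mouse 2 on 0% RPS and 20.73 and 26.81 CPM in mouse 3 on 2% RPS.

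Pairs of the beta 1 chain and of alpha v followed. Itga5 and Itgb1 gave r = 0.72 and rho = 0.83 (permutation adjusted p = 0.00152 and 0.000823), and 0.77 without 2 mice. Itga7 and Itgb1 gave r = 0.7 and rho = 0.66 (permutation adjusted p = 0.0119 and 0.0213), and Itga9 and Itgb1 r = 0.64 and rho = 0.68 (permutation adjusted p = 0.022 and 0.014). Itgav and Itgb6 gave r = 0.64 and rho = 0.69 (permutation adjusted p = 0.00451 and 0.00879). Without 2 mice r was 0.58, 0.74 and 0.63 for these 3 pairs.

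The laminin and hemidesmosome partners Lama3 with Lamb3 and Itga6 with Itgb4 did not pass. Lama3 and Lamb3 gave r = 0.39 (permutation adjusted p = 0.184). Itga6 and Itgb4 gave r = -0.23 and rho = -0.05 (permutation adjusted p = 0.495 and 0.842), and r was 0.37 without the 2 mice farthest from the median of Itga6. Itgav and Itgb5 gave a negative r of -0.48 (permutation adjusted p = 0.0747).

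**Figure D5:**
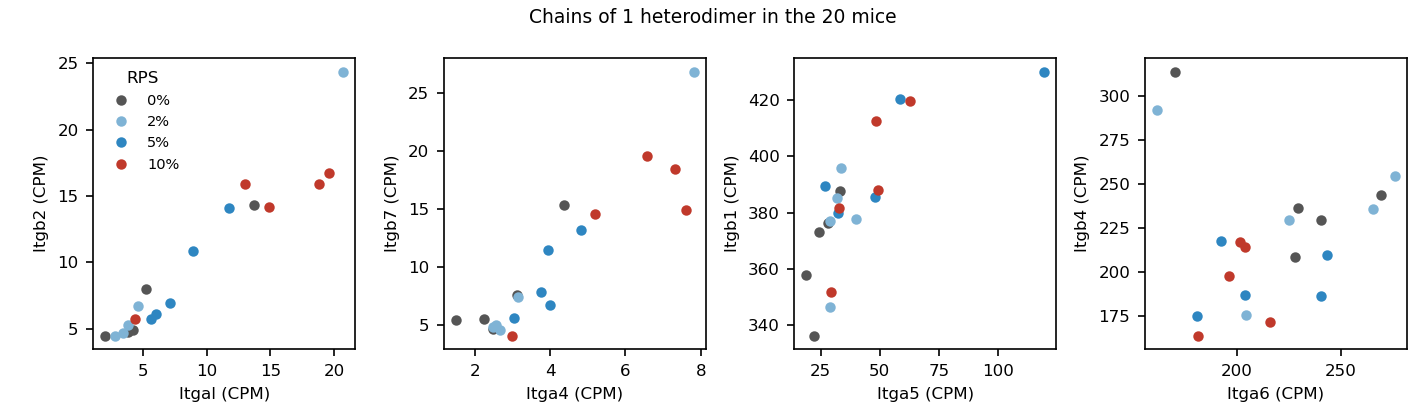
CPM of the 2 chains of 4 integrins in the 20 mice, with the alpha chain on the horizontal and the beta chain on the vertical axis, colored by RPS in the diet; axes do not start at 0. Itgal with Itgb2 and Itga4 with Itgb7 rise together across mice of all diets, Itga5 with Itgb1 less tightly, and Itga6 with Itgb4 shows no common direction.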

How the data were processed

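RNA-seq counts of the cecum were analysed in 20 mice, 5 for each of the 0, 2, 5 and 10% RPS diets, numbered 1 to 5 within a diet in the order of the sample list. According to the methods, the authors made stranded poly(A) libraries, removed low-quality nucleotides, mapped single-end reads to GRCm39 and counted reads per gene with CLC Genomics Workbench 20.01. The deposited table holds raw counts, not normalized. The gene models, how multi-mapped reads were handled and the strand setting are not given in the sources used here. Of 19887 genes, 19827 matched a GENCODE vM39 identifier and 1354 were at 0 in all mice. Columns without a sample: 0.

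Genes were filtered with filterByExpr (minimum count 10, minimum total 15), scaled by TMM and tested with edgeR 4.0.16 (quasi-likelihood test, robust, 1 fit of 4 diets) under R 4.3.3. P-values were adjusted by Benjamini-Hochberg over all 15348 genes. A call needed an adjusted p of at most 0.05 and a change of at least 1.5-fold, the thresholds of the study, and the trend needed the adjusted p alone. The study used DESeq2, which was run here (1.42.0) as an alternative. The scripts were checked on simulated counts. Marker levels used as covariates were the mean log2 CPM of each list. Values in every mouse are given for members called in any comparison or with an unadjusted p under 0.05 for 10% RPS, and the others by means, ranges and counts. Itgb3bp was added to the non-integrin genes after the counts were read. Members, gene lists and tests were chosen with earlier results of these data known. Partner chains were compared with 100000 permutations of mice within diets. Promoter windows were read from GRCm39 at canonical GENCODE starts. Genes on chromosome 18 are not shown as sequence. Values of 1 member are not reported here. Depth limits members near the floor of 3 counts, and a floor covers counting error only. No sequencing batch is given in the sources used here.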

Additional observations from a re-analysis of the deposited data

Results flagged for a closer look

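In 52 groups of 5 mice (13 members by 4 diets), 3 had 1 mouse far above the other 4, where the gap to the nearest mouse exceeded 0.71 of the range of the group. For normally distributed values chance gives about 1 in 20 such groups, and 3 of 52 lies near that share. CPM need not be normally distributed, and the 13 members were measured in the same mice, so the groups are not independent. Itga4 was 7.82 CPM in mouse 3 on 2% RPS, and the next mouse had 3.15 CPM. Itgal was 20.7 CPM in the same mouse, with 4.6 CPM in the next. Itgal was 13.7 CPM in mouse 2 on 0% RPS, with 5.24 CPM in the next. The sum of B cell markers in these 2 mice was 215.3 and 159.8 CPM. Their part in these values was not tested.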

How the results depend on the processing

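With 10% RPS, 1 member was called higher. The count was 0 with the smooth muscle marker level as a covariate, 0 with the epithelial marker level, 0 with only the mice of the 2 diets compared, and 2 by the DESeq2 Wald test (Itga4 and Itga9). Leaving out 1 mouse gave 0 to 2, with 2 (Itga4 and Itga9) without mouse 2 on 0% RPS, 1 without mouse 1 on 0% or mouse 4 on 10% RPS, and 0 without any of the other 7. No member was called lower with 10% RPS, or in either direction with 2% RPS, under any alternative run. With 5% RPS, 0 were called higher and the DESeq2 Wald test called 1 (Itga5). 0 were called lower, and leaving out 1 mouse gave 0 to 1 (Itga2, without mouse 5 on 0% RPS). The trend called 1 member higher. The count was 0 with either covariate, 2 by the DESeq2 Wald test (Itga4 and Itga9), and 0 to 3 with 1 mouse left out, with 3 (Itga4, Itga9 and Itgal) without mouse 3 on 2% RPS. The trend called 0 lower, 1 by the DESeq2 Wald test (Itgb4), 1 with the rank of the dose (Lamb3), and 0 to 2 with 1 mouse left out, with 2 (Itgb6 and Lamb3) without mouse 4 on 10% RPS. The causes were not tested. Of 221 alternative estimates of the 13 members named for 10% RPS, 220 kept their direction. The exception was Itga5, with -0.03 when smooth muscle markers were a covariate. Per canonical length, an alternative chosen after seeing the data, the ratio of Lamb3 to Lama3 was 17.8 and of Itgb4 to Itga6 0.666. No paired analysis was possible because the mice of different diets share no numbers in the labels. Members near the floor, such as Itgad, Itgbl1 and Itgb1bp2, are limited by depth.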
